A study of Homo sapiens with 6 samples.

Results

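The 48 genes described here encode the machinery that takes a new protein into the endoplasmic reticulum (ER), glycosylates it and carries it to and from the Golgi. They were chosen by gene name, with no threshold on their values, and each was found once among the 28847 genes of the deposited table. By role they fall into 19 genes of targeting and translocation, 7 of the oligosaccharyltransferase, 9 of the COPII coat, 6 of the COPI coat and 7 cargo receptors. RNA was sequenced from 6 libraries labelled THP-1, a human monocytic leukaemia line: 3 labelled with the line alone, called control here, and 3 labelled as given recombinant human RBP4, the plasma carrier of retinol. The submitters describe the cells as a model of M0, or unpolarized, macrophages, and the labels give neither dose nor time. Nothing in the labels says that libraries of a group came from separate cultures, so p-values measure only the spread between these libraries, which may be technical.

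The values are normalized reads: the reads of a gene divided by 1 size factor per library. Depth was 15202000 to 16420517 reads per library, and mitochondrial genes took 5.90% to 6.10% of the reads in the control libraries and 7.58% to 7.69% in the RBP4 libraries; the part of that difference in the results was not tested. The labelled cell type was checked against its markers, and the data went against it. Of 24 monocyte and macrophage markers, 17 were in the table and 4 reached 10 CPM (reads relative to the library's total) in all libraries. Another 10, CD14, CD68, CD163, MRC1 and S100A8 among them, were below 1 CPM throughout. Others were expressed, with control means of 105 CPM for FCGR2A, 52.7 for CD33, 39.2 for SPI1, 14.9 for CTSS and 11.2 for LYZ. The list summed to 227 to 233 CPM in the control and 235 to 247 CPM in the RBP4 libraries. Of 21 erythroid markers, 17 reached 10 CPM in all libraries. HBE1, EPB42, SLC4A1 and AHSP were low, with control means of 0.518, 0.617, 1.46 and 2.62 CPM. The 21 summed to 2855 to 2872 CPM in the control and 2582 to 2654 CPM in the RBP4 libraries. TFRC, the transferrin receptor, alone went from 901 to 483 CPM, and the other 20 summed to 1948 to 1979 and 2110.5 to 2154 CPM, higher in the RBP4 libraries. Of 8 pan-leukocyte markers, 6 reached 10 CPM in all libraries, and the 8 summed to 1019 to 1037 and 930 to 939 CPM. LCP1 went from 443 to 339 and CD53 from 119 to 91.8 CPM, and the other 6 summed to 464 to 468 and 499 to 506 CPM. TFRC, LCP1 and CD53 were singled out after their values were seen, and the part of these shifts in the results was not tested. Given these markers, the groups are named only by their labels, and differences in cell make-up and in RNA per cell cannot be told apart in bulk libraries.

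As background, a signal sequence emerging from the ribosome is bound by the signal recognition particle (SRP), handed to its receptor and threaded through the SEC61 channel, where signal peptidase cuts it off and the oligosaccharyltransferase adds sugar chains. COPII-coated vesicles then carry folded cargo from the ER towards the Golgi, and COPI-coated vesicles bring escaped ER residents and receptors back. Cells that secrete much protein, or whose ER is loaded beyond its folding capacity, are known to raise many of these genes through transcription factors such as XBP1 and ATF6.

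Each of the 5 sub-groups held raised and lowered members, except that COPI had none lowered when libraries were scaled to equal totals, and the changes were small. SEC61A1, the channel subunit, rose 1.33-fold in the RBP4 libraries while SEC61G, another subunit of the same channel, was 1.26-fold lower. The KDEL receptors KDELR2 and KDELR3 rose 1.17-fold and 1.247-fold, and the coat subunit SEC23B rose 1.18-fold while its paralog SEC23A was 1.19-fold lower. All 48 members passed the filter on low values (at least 10 normalized reads in at least 3 libraries). With limma, and p-values adjusted by Benjamini-Hochberg over every gene tested, the threshold was an adjusted p under 0.05. By that rule 10 members were raised (20.8% of them, against 24.5% of the 15676 genes tested) and 17 were lowered (35.4%, against 26.1%). In both directions together that is 27 members, 56.2%, against 50.6% of all genes, a share near the background. Among the 11119 genes at 5 CPM or more in 3 libraries, all 48 members included, 59.9% were called, 25.8% raised and 34.1% lowered, and the members' counts were the same. Of the 48, 28 had an unadjusted p under 0.05 in limma. So did 8764 of the 15676 genes tested, and 7066 of the 11119 at 5 CPM or more in 3 libraries.

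This split between higher and lower depended on scaling. Normalized reads summed to less in each RBP4 library than in each control library, and with libraries scaled to equal totals 16 members were raised and 8 lowered, where 30.8% of all genes were raised and 19.1% lowered. That scaling shifted the median change by 0.068 on the log2 scale over all genes, and by as much over the members. With the submitters' size factors the members' log2 fold changes ran from -0.34 to 0.42, with a median of -0.011 (all genes -0.0021). The median size of a log2 fold change was 0.10 for the members and 0.23 for all genes. Only SEC61A1 and SEC61G reached 1.25-fold in the fit (4.17% of the members), against 35.7% of all genes tested and 25.3% of those at 5 CPM or more in 3 libraries; KDELR3 lay just under it. None reached 1.5-fold, against 16.5% and 7.75%. The libraries of the 2 groups did not overlap for 30 members (62.5%). That compares with 56.2% of all genes tested and 63.0% of those at 5 CPM or more in 3 libraries, a share near the background.

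**Figure D1:**
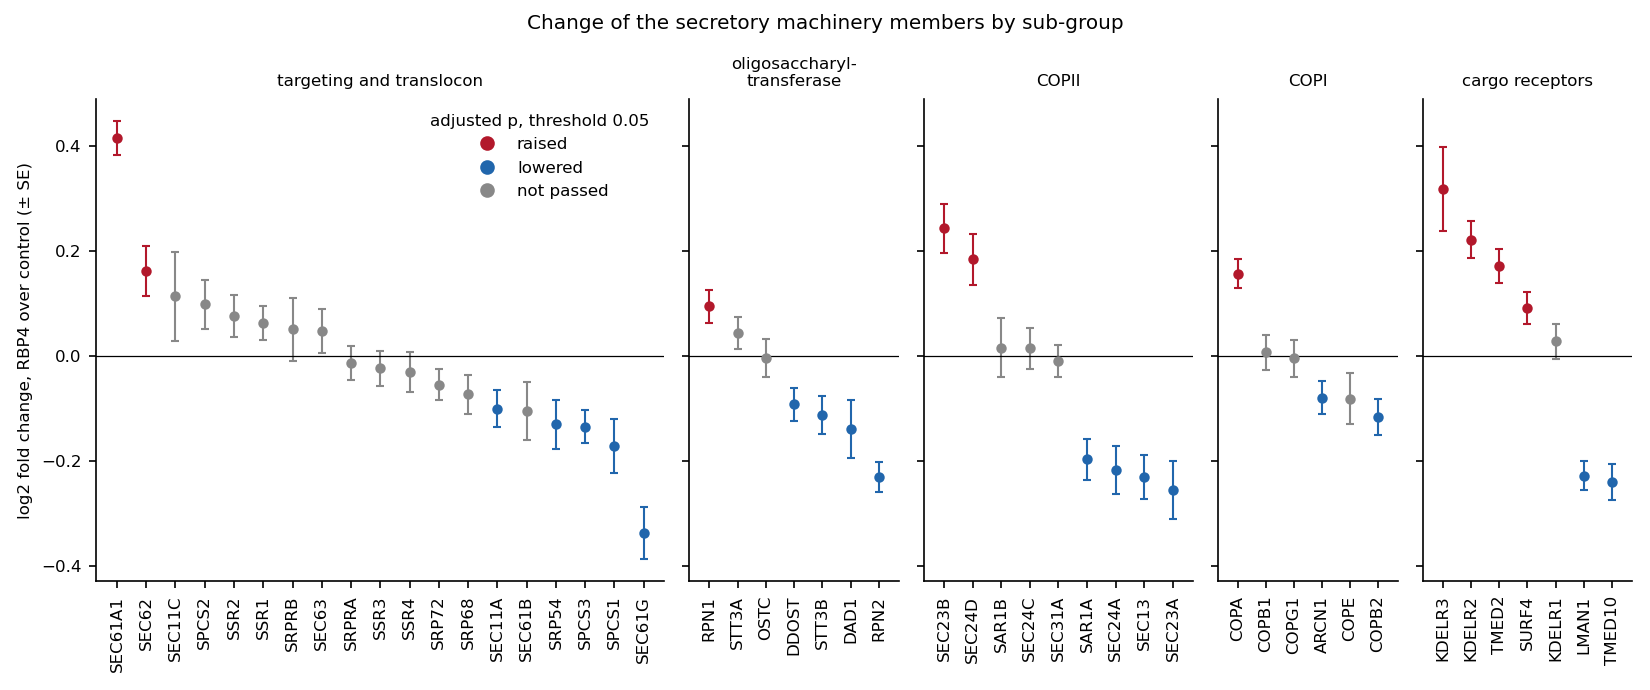
Log2 fold change (y axis, RBP4 over control, with its standard error) of each of the 48 members (x axis), grouped by role and coloured by call at an adjusted p under 0.05. Each panel holds members above and below 0, from SEC61A1 at 0.42 to SEC61G at -0.34.

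Of the 27 calls, 17 were kept in all 15 alternative analyses: SEC61A1, SEC62, RPN1, COPA, SEC23B, SEC24D, TMED2, KDELR2 and KDELR3 among the raised, and SEC61G, RPN2, SEC23A, SEC13, SEC24A, SAR1A, TMED10 and LMAN1 among the lowered. The authors' deposited table gave an adjusted p under 0.05 for 23 members (47.9%), 10 raised and 13 lowered, and all 23 were called in the same direction here. It did so for 20.6% of its 28847 genes, but only 15676 of these passed the filter on low values. The 2 shares are therefore not alike. SEC11A, SRP54, DAD1 and ARCN1 were called here and not in the authors' deposited table.

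Promoters were searched for short motifs bound by factors that control ER genes, such as XBP1 and ATF6. RefSeq promoters (GRCh38.p14, 250 bases before to 50 after the start) were matched for 42 members. SRPRA, SPCS1, SEC24D, KDELR2, STT3B and RPN1 were not matched. The unfolded protein response element, TGACGTGG on either strand, lay in the promoters of 9 of the 42 genes, in 10 of their 53 promoters (18.9%), against 0.729% of all 35097 promoters and 0.762% of the 22183 promoters of coding genes. The 9 genes were COPA, KDELR3 and SEC62, of 7 raised members matched; COPB2, SEC23A and SEC24A, of 15 lowered; and COPB1, SSR3 and SSR4, of 20 that did not pass. The 10 matches are shown on the strand that reads TGACGTGG (capitals), with 11 bases on each side, since they are what these 9 promoters share.
COPA, chr1:160343227-160343256, minus strand: gagagggtcgcTGACGTGGaggcgtccgaa
SEC62, chr3:169966779-169966808, minus strand: ccggttccctcTGACGTGGagcgaggaggg
KDELR3, chr22:38468039-38468068, minus strand: tggccgggcggTGACGTGGccagggcggcc
SEC23A, chr14:39103221-39103250, minus strand: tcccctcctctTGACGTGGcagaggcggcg
SEC24A, chr5:134648595-134648624, plus strand: gtgagagtcggTGACGTGGcggcgaggccg
COPB2, chr3:139389825-139389854, plus strand: actaagggccgTGACGTGGtgccgctgagc
COPB2, chr3:139389632-139389661, plus strand: gtcagactgacTGACGTGGaacttccggga
COPB1, chr11:14499841-14499870, plus strand: gagtccttggcTGACGTGGaagggggtggg
SSR3, chr3:156554148-156554177, plus strand: agtttccttgcTGACGTGGctgttatcaga
SSR4, chrX:153794528-153794557, minus strand: tctggcagcacTGACGTGGcccctccctga

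The SEC24A match lies in an exon of SAR1B, the gene that starts there on the other strand, the upstream COPB2 match in an exon of a neighbouring transcript, and the SSR3 and KDELR3 matches in no exon. The ER stress elements ERSE and ERSE-II, searched on both strands, were found in none of the 42; ERSE lay in 0.0769% and ERSE-II in 0.0541% of all promoters. The element TGATGNAA lay in the promoter of SRPRB (3.62% of all promoters). The short core CCACG, which is also contained in both ER stress elements and in the reverse strand of TGACGTGG, lay in 44 of the 53 member promoters (83.0%), against 38.1% of all and 43.1% of coding promoters. SEC61A1, the most raised member, held only that core among the motifs searched, shown in capitals on the strand that reads CCACG.
SEC61A1, chr3:128052323-128052387, minus strand: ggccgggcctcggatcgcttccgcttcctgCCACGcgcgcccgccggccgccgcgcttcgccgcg

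In the targeting and translocation sub-group, 2 of 19 members were raised and 5 lowered, against 24.5% and 26.1% of all genes. With libraries scaled to equal totals 6 were raised and 1 lowered, against 30.8% and 19.1%. The lowered share with the submitters' size factors and the raised share at equal totals were thus near the background. SEC61A1 (ENSG00000058262, GRCh38 chromosome 3, 128051641 to 128071683, plus strand), which forms the channel itself, had 2805, 2881 and 2927 normalized reads in the control and 3835, 3955 and 3696 in the RBP4 libraries. Every RBP4 library was above every control library, and the log2 fold change was 0.42 (standard error 0.033, adjusted p = 1.04e-17). SEC61G (ENSG00000132432, chromosome 7, 54752250 to 54759974, minus strand), a small subunit that clasps the channel, had 1143, 1269 and 1178 normalized reads in the control and 898, 975 and 965 in the RBP4 libraries. Here every RBP4 library was below every control library, with a log2 fold change of -0.34 (standard error 0.049, adjusted p = 2.87e-08). SEC61B, the other small subunit, had 796, 815 and 748 normalized reads in the control and 709.5, 740.3 and 743 in the RBP4 libraries. The groups did not overlap for SEC61B either, but its log2 fold change of -0.10 (standard error 0.055, adjusted p = 0.108) did not pass. Without control replicate 3 SEC61B was called lowered (log2 fold change -0.14, adjusted p = 0.0488). Of SEC61A1's exon bases, 7.32% are shared with RUVBL1 on the other strand, which went from 1753 to 1557 normalized reads.

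SEC62 and SEC63 open the channel to proteins that arrive after translation, SEC63 by recruiting the chaperone HSPA5 to it. SEC62 had 1046, 1143 and 1133 normalized reads in the control and 1223, 1231 and 1260.0 in the RBP4 libraries. The RBP4 libraries were the higher ones without overlap, and its log2 fold change was 0.16 (standard error 0.047, adjusted p = 0.0028). SEC63 had 1569, 1579.7 and 1494 normalized reads in the control and 1574, 1643 and 1581 in the RBP4 libraries. These groups overlapped, and a log2 fold change of 0.048 (standard error 0.041, adjusted p = 0.347) did not pass; it did at equal totals (adjusted p = 0.016).

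None of the 4 members of the translocon-associated (TRAP) complex, which sits beside the channel and helps it open for some signal sequences, passed the test. SSR1 had 4008, 3983 and 4406 normalized reads in the control and 4244, 4425 and 4266 in the RBP4 libraries, and SSR2 had 1783, 1675 and 1719.7 in the control and 1859, 1811 and 1788 in the RBP4 libraries. SSR3 had 3842, 3999.6 and 4302 normalized reads in the control and 4044, 3935 and 3955 in the RBP4 libraries, and SSR4 had 2206, 2148 and 2022 in the control and 2092, 2074 and 2072 in the RBP4 libraries. Only SSR2 had groups that did not overlap, with the RBP4 libraries higher. The log2 fold changes were 0.062 (standard error 0.033, adjusted p = 0.105) for SSR1 and 0.076 (standard error 0.04, adjusted p = 0.102) for SSR2. Those of SSR3 and SSR4 were -0.024 and -0.031, with 95% intervals of -0.088 to 0.040 and -0.10 to 0.043. At equal totals SSR1 and SSR2 were called raised (adjusted p = 6.16e-04 and 0.00174). SSR1 was also called without control replicate 3 (adjusted p = 0.00433), and SSR2 without control replicate 1 (adjusted p = 0.0466).

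Signal peptidase cleaves the signal sequence; SEC11A and SEC11C are its alternative catalytic subunits and SPCS1, SPCS2 and SPCS3 are partner subunits. SPCS1 had 994, 935 and 962 normalized reads in the control and 841, 855 and 868 in the RBP4 libraries, and SPCS3 had 3797, 3849 and 3896 in the control and 3489.5, 3531 and 3492 in the RBP4 libraries. Both were lower in every RBP4 library, with log2 fold changes of -0.17 (standard error 0.051, adjusted p = 0.00355) and -0.13 (standard error 0.031, adjusted p = 1.97e-04), though neither passed at equal totals (adjusted p = 0.0843 and 0.0672). SPCS1 shares 50.7% of its exon bases with NEK4 on the other strand, and the library kit does not mark strand, so its value is uncertain. SPCS2 had 1219, 1287 and 1161 normalized reads in the control and 1236, 1318 and 1373 in the RBP4 libraries. Its groups overlapped, and its log2 fold change of 0.099 (standard error 0.047, adjusted p = 0.0714) did not pass; it was called raised at equal totals (adjusted p = 0.00214), by edgeR (0.044), and without control replicate 2 (0.0273) or RBP4 replicate 1 (0.0247). A processed pseudogene copy, SPCS2P4, went from 135 to 75.6 normalized reads and could exchange reads with it. SEC11A had 2695, 2776 and 2774 normalized reads in the control and 2506, 2477 and 2713 in the RBP4 libraries. In SEC11A 1 RBP4 library lay within the control range, and the log2 fold change of -0.10 (standard error 0.036, adjusted p = 0.0146) was lost at equal totals (adjusted p = 0.469), in DESeq2 (0.0701), and without control replicate 2 (0.0554), RBP4 replicate 1 (0.0869) or RBP4 replicate 2 (0.112). SEC11C, the least abundant member per kilobase, had 287, 303 and 282 normalized reads in the control and 306, 299 and 338 in the RBP4 libraries, overlapping groups and a log2 fold change of 0.11 (standard error 0.084, adjusted p = 0.267).

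SRP and its receptor bring ribosomes to the membrane. SRP54, which binds the signal sequence, had 1154, 1129 and 1105 normalized reads in the control and 1029, 1047 and 1018 in the RBP4 libraries. All 3 RBP4 libraries were lower, and the log2 fold change was -0.13 (standard error 0.047, adjusted p = 0.0174). The call was lost at equal totals (adjusted p = 0.28), in DESeq2 (0.0846), and without control replicate 1 (0.0617) or RBP4 replicate 3 (0.0557). SRP68 had 2129.9, 2186 and 2119 normalized reads in the control and 2017, 2004 and 2099 in the RBP4 libraries, and SRP72 had 4586, 4732 and 4570.2 in the control and 4390.4, 4478 and 4503 in the RBP4 libraries. These partners of the particle's RNA were also lower in every RBP4 library, but their log2 fold changes of -0.073 (standard error 0.037, adjusted p = 0.097) and -0.055 (standard error 0.03, adjusted p = 0.118) did not pass. For the receptor, SRPRA had 3191, 3097 and 3121 normalized reads in the control and 3176, 3096 and 3052 in the RBP4 libraries, and SRPRB had 582, 617 and 601 in the control and 621, 635 and 609 in the RBP4 libraries. Both pairs of groups overlapped, with log2 fold changes of -0.013 (95% interval -0.077 to 0.051) and 0.051 (-0.067 to 0.17).

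The oligosaccharyltransferase moves a preassembled glycan onto asparagines of the new chain. Of its 7 members 1 was raised (14.3%) and 4 lowered (57.1%), against 24.5% and 26.1% of all genes. Scaled to equal totals, 2 were raised (28.6%) and 1 lowered (14.3%), against 30.8% and 19.1%. RPN1, which holds substrates near the catalytic subunit, had 3224, 3229 and 3314 normalized reads in the control and 3433, 3489.9 and 3504 in the RBP4 libraries. All 3 RBP4 libraries were higher, and the log2 fold change was 0.094 (standard error 0.032, adjusted p = 0.0104). RPN2 (ENSG00000118705, chromosome 20, 37178410 to 37241623, plus strand), a shared subunit of the complex, had 6423, 6333 and 6837 normalized reads in the control and 5576, 5571 and 5532 in the RBP4 libraries. It was lower in every RBP4 library, with a log2 fold change of -0.23 (standard error 0.029, adjusted p = 2.09e-10), the largest fall of the sub-group.

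DDOST, DAD1 and STT3B made up the rest of the lowered members, and each call depended on the analysis. DDOST, a shared structural subunit, had 3961, 3914 and 4004 normalized reads in the control and 3760.2, 3773 and 3610.2 in the RBP4 libraries. DAD1, a small subunit first known from cell death in its absence, had 908, 864 and 839.5 normalized reads in the control and 727, 830.0 and 816 in the RBP4 libraries. STT3B, the catalytic subunit that can act after translocation, had 2757, 2798 and 2976 normalized reads in the control and 2634, 2526 and 2729.9 in the RBP4 libraries. In each of the 3 the RBP4 libraries were lower without overlap, with log2 fold changes of -0.092 (standard error 0.031, adjusted p = 0.0101), -0.14 (standard error 0.055, adjusted p = 0.0291) and -0.11 (standard error 0.036, adjusted p = 0.0061). At equal totals none passed (adjusted p = 0.542, 0.289 and 0.306). DDOST was lost without RBP4 replicate 3 (adjusted p = 0.0786), and STT3B without control replicate 3 (0.0778) or RBP4 replicate 2 (0.0736). DDOST shares 15.7% of its exon bases with PINK1-AS, which had means of 19.4 and 29.9 normalized reads. DAD1 was lost in edgeR (adjusted p = 0.0561), in DESeq2 (0.15), and without control replicate 1 (0.133), control replicate 2 (0.0529) or RBP4 replicate 1 (0.293). STT3A, the catalytic subunit bound to the channel, had 3751, 3816 and 3842 normalized reads in the control and 3896, 3906 and 3954 in the RBP4 libraries. Its groups did not overlap and the RBP4 libraries were higher, but the log2 fold change of 0.043 (standard error 0.031, adjusted p = 0.243) did not pass; at equal totals it did (adjusted p = 0.00165). OSTC, which links STT3A to the channel, had 2102, 2134 and 2143 normalized reads in the control and 2072, 2122 and 2169 in the RBP4 libraries. Those groups overlapped, and the difference was -0.0037 on the log2 scale, with a 95% interval of -0.076 to 0.068.

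In the COPII coat, 2 pairs of paralogs moved in opposite directions. Of 9 members 2 were raised (22.2%) and 4 lowered (44.4%), against 24.5% and 26.1% of all genes. The same counts were found at equal totals, against 30.8% and 19.1%. SEC23A and SEC23B are alternative inner coat subunits that also activate the GTPase SAR1. SEC23A (ENSG00000100934, chromosome 14, 39031919 to 39109646, minus strand) had 797, 816 and 872 normalized reads in the control and 686, 685 and 709 in the RBP4 libraries. SEC23B (ENSG00000101310, chromosome 20, 18507482 to 18561415, plus strand) had 1029, 1046 and 992 normalized reads in the control and 1183, 1238 and 1209 in the RBP4 libraries. Neither pair of groups overlapped: SEC23A was lower in the RBP4 libraries (log2 fold change -0.26, standard error 0.055, adjusted p = 7.99e-05) and SEC23B higher (0.24, standard error 0.047, adjusted p = 1.25e-05).

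SEC24 proteins select cargo. SEC24A had 1427, 1429 and 1564 normalized reads in the control and 1290.5, 1304 and 1206 in the RBP4 libraries, and SEC24D had 960.4, 949 and 909 in the control and 1083, 1058 and 1061 in the RBP4 libraries. They too moved apart without overlap, SEC24A by -0.22 (standard error 0.045, adjusted p = 3.99e-05) and SEC24D by 0.18 (standard error 0.049, adjusted p = 0.0012) on the log2 scale. SEC24C had 1869, 2025 and 1882 normalized reads in the control and 1925, 1998 and 1911 in the RBP4 libraries. Its groups overlapped and its log2 fold change was 0.015 (95% interval -0.062 to 0.091). SEC24A shares 5.35% of its exon bases with SAR1B on the other strand. SEC24C shares 42.9% of its exon bases with a transcript on the other strand that had means of 14.58 and 13.05 normalized reads.

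SEC13 and SEC31A form the outer cage. SEC13 had 2158, 1933 and 2159 normalized reads in the control and 1689.7, 1865 and 1766 in the RBP4 libraries, lower in the RBP4 libraries without overlap (log2 fold change -0.23, standard error 0.042, adjusted p = 5.79e-06). SEC31A had 3911, 3995 and 4141 normalized reads in the control and 3944, 3995 and 4029 in the RBP4 libraries, overlapping, with a log2 fold change of -0.0091 (95% interval -0.070 to 0.051). SAR1A and SAR1B are the GTPases that start coat assembly. SAR1A had 1928, 2012 and 2058 normalized reads in the control and 1749.6, 1682 and 1801 in the RBP4 libraries, and SAR1B had 758, 778 and 796 in the control and 833, 722 and 804 in the RBP4 libraries. SAR1A was lower in every RBP4 library (log2 fold change -0.20, standard error 0.039, adjusted p = 2.13e-05). SAR1B overlapped, with 1 RBP4 library at either end of its range, and its log2 fold change was 0.015 (95% interval -0.094 to 0.13).

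In coatomer, the complex that coats COPI vesicles returning to the ER, 1 of 6 members was raised and 2 lowered. That is 16.7% and 33.3%, against 24.5% and 26.1% of all genes. Scaled to equal totals, 1 was raised and 0 lowered in limma, against 30.8% and 19.1%. At equal totals 2 of the 6 had an unadjusted p under 0.05 in limma, in either direction. On recovered reads, each with its own scaling and not at equal totals, edgeR and DESeq2 each called 1 lowered. COPA, the alpha subunit, which binds retrieval signals, had 5802, 6158 and 5964 normalized reads in the control and 6549, 6772 and 6657 in the RBP4 libraries. The RBP4 libraries were higher without overlap, with a log2 fold change of 0.16 (standard error 0.028, adjusted p = 2.41e-06). COPB2, the beta-prime subunit that forms the outer coat with COPA, had 2700.2, 2856 and 2713 normalized reads in the control and 2579, 2463 and 2585 in the RBP4 libraries. Its RBP4 libraries were lower without overlap (-0.12, standard error 0.035, adjusted p = 0.00394), and the call was lost at equal totals (adjusted p = 0.255) and without control replicate 2 (0.0535). ARCN1, the delta subunit, had 3965, 4168 and 4280.0 normalized reads in the control and 3991, 3954 and 3798 in the RBP4 libraries. In ARCN1 1 RBP4 library exceeded the lowest control, and the log2 fold change of -0.079 (standard error 0.032, adjusted p = 0.0307) was lost at equal totals (adjusted p = 0.792), in edgeR (0.0799), in DESeq2 (0.0914), and without control replicate 2 (0.0922), control replicate 3 (0.184) or RBP4 replicate 3 (0.172).

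The other coatomer members, beta (COPB1), gamma (COPG1) and epsilon (COPE), did not pass. COPB1 had 3059, 3317 and 3334 normalized reads in the control and 3312, 3234 and 3204 in the RBP4 libraries. COPG1 had 2641, 2593 and 2502 normalized reads in the control and 2516, 2661 and 2536 in the RBP4 libraries. COPE had 1429, 1231 and 1397 normalized reads in the control and 1265, 1331 and 1232 in the RBP4 libraries. All 3 overlapped between groups. The log2 fold changes were 0.0067 for COPB1 (95% interval -0.059 to 0.073), -0.0044 for COPG1 (-0.073 to 0.065) and -0.081 for COPE (-0.17 to 0.012). Without control replicate 2, the lowest COPE library, COPE was called lowered (log2 fold change -0.15, adjusted p = 0.0127).

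Of 7 cargo receptors 4 were raised and 2 lowered, against 24.5% and 26.1% of all genes; at equal totals 5 were raised and 2 lowered, against 30.8% and 19.1%. Without RBP4 replicate 1 the raised were 3, SURF4 being lost (adjusted p = 0.0518). The KDEL receptors bind the tail sequence of ER residents such as HSPA5 in the Golgi and return them by COPI vesicles. KDELR3 (ENSG00000100196, chromosome 22, 38468062 to 38483447, plus strand) had 304, 288 and 326 normalized reads in the control and 366, 408 and 370.1 in the RBP4 libraries. KDELR2 (ENSG00000136240, chromosome 7, 6445953 to 6484242, minus strand) had 2257, 2293 and 2320.4 normalized reads in the control and 2660.2, 2747 and 2605 in the RBP4 libraries. KDELR1 had 2981, 2971 and 2952 normalized reads in the control and 2974, 3147 and 2959.7 in the RBP4 libraries. KDELR2 and KDELR3 were higher in every RBP4 library, with log2 fold changes of 0.22 (standard error 0.035, adjusted p = 2.17e-07) and 0.32 (standard error 0.08, adjusted p = 6.20e-04). KDELR1 overlapped and did not pass (0.028, standard error 0.033, adjusted p = 0.51), except at equal totals (log2 fold change 0.096, adjusted p = 0.0132). HSPA5, a client of these receptors, went from 13531 ± 201 to 40985 ± 207 (normalized reads, mean ± SD of 3 libraries), 3.03-fold. KDELR2 shares 9.42% of its exon bases with DAGLB on the same strand, which had 339 and 329.8 normalized reads.

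TMED2 and TMED10 belong to a family of transmembrane proteins that form hetero-oligomers and cycle between ER and Golgi with COPII and COPI vesicles. TMED2 had 3315, 3267 and 3238 normalized reads in the control and 3699, 3619 and 3739 in the RBP4 libraries, and TMED10 had 3126, 3177 and 3424 in the control and 2728, 2745 and 2754 in the RBP4 libraries. They moved in opposite directions without overlap, TMED2 by 0.17 (standard error 0.032, adjusted p = 5.29e-06) and TMED10 by -0.24 (standard error 0.034, adjusted p = 1.36e-08). LMAN1, the lectin that carries coagulation factors out of the ER, had 6202, 6223 and 6226 normalized reads in the control and 5262, 5194 and 5471 in the RBP4 libraries. All RBP4 libraries were below all control libraries (log2 fold change -0.23, standard error 0.028, adjusted p = 2.13e-10). SURF4, a receptor for many soluble cargo proteins, had 3609.9, 3590.1 and 3537 normalized reads in the control and 3842, 3828 and 3765 in the RBP4 libraries. It was higher without overlap (0.091, standard error 0.031, adjusted p = 0.0113), and without RBP4 replicate 1 its adjusted p was 0.0518.

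**Figure D2:**
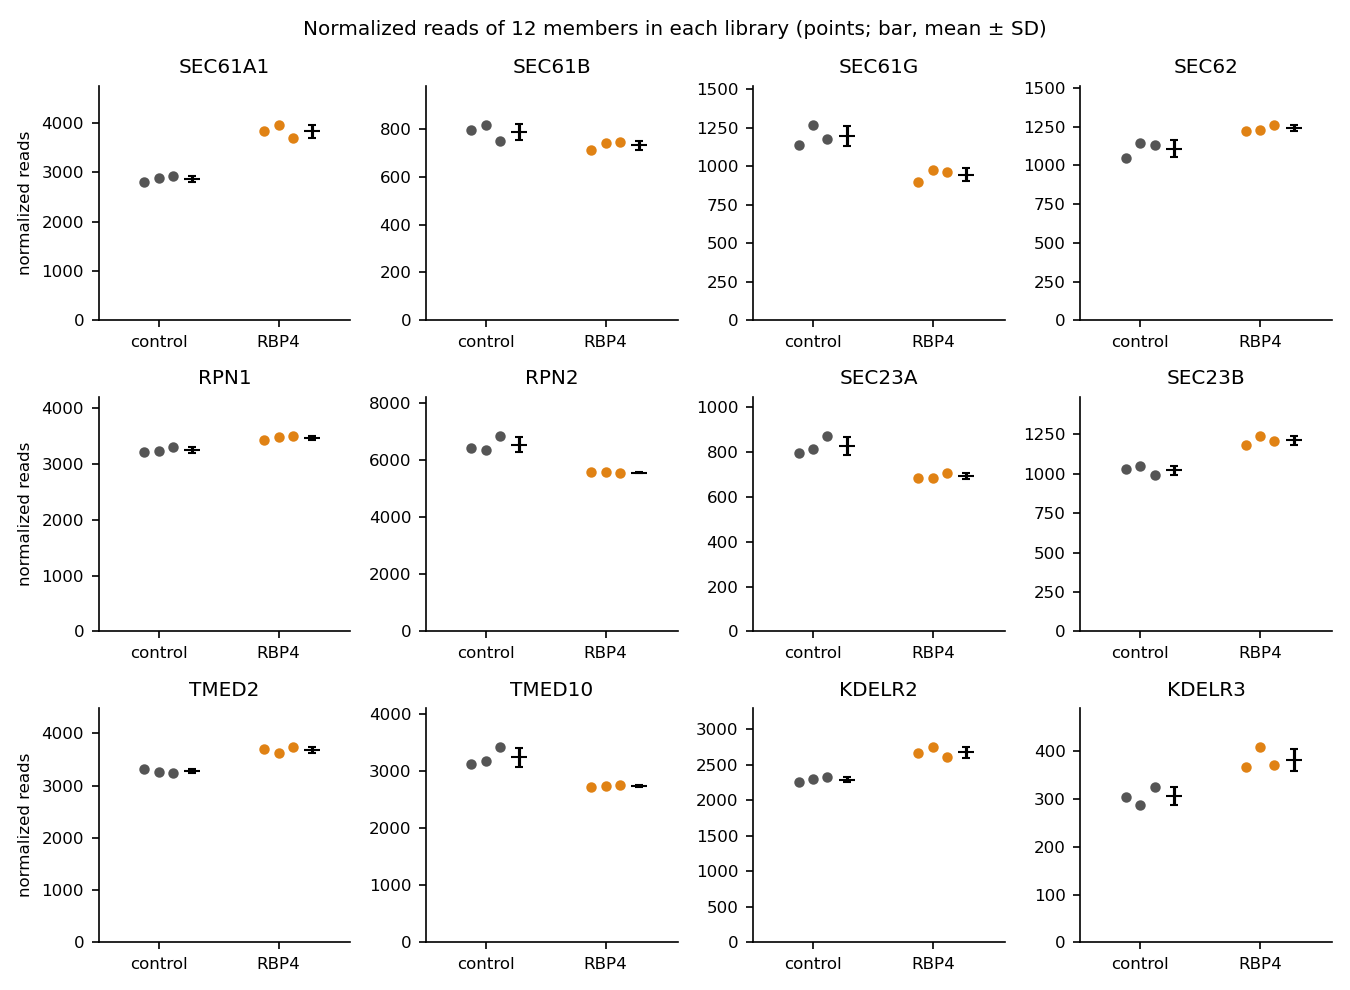
Normalized reads (y axis, from 0) in each library (points) of 12 members, with the mean and SD of the 3 libraries of a group beside them. The 12 are a selection, all from the 30 of 48 members whose groups did not overlap. In each panel the RBP4 libraries therefore lie wholly above or wholly below the control libraries, SEC61A1 at 3696 to 3955 against 2805 to 2927. SEC61B did not pass the test.

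Ratios of paralogs within a library do not depend on the library's scaling, and they test whether 2 paralogs changed by different amounts. With 3 libraries against 3, an exact two-sided permutation test cannot give a p below 0.1. Of 10 ratios, 9 did not overlap between groups and reached that p of 0.1, which adjusted over the 10 is 0.111, so none passes. Single genes did not overlap in 56.2% of all genes tested and in 63.0% of those at 5 CPM or more in 3 libraries. How often ratios of other gene pairs do so was not tested. Ratios among SEC24 genes share members, as do those among KDEL receptors, so the 10 are not separate results. The ratio of SEC23A to SEC23B was 0.775, 0.780 and 0.879 in the control and 0.580, 0.553 and 0.586 in the RBP4 libraries. Its mean went from 0.811 ± 0.0588 to 0.573 ± 0.0177 (SD, n = 3 per group), a log2 change of -0.50. For SEC24A to SEC24D the ratio was 1.486, 1.506 and 1.721 in the control and 1.192, 1.233 and 1.137 in the RBP4 libraries, a change of -0.40. Thus SEC23A lost ground to SEC23B, and SEC24A to SEC24D, in every RBP4 library. SEC24A was not the only lowered SEC24 gene. SEC24B, counted below as a neighbouring gene, went from 1246 ± 59.1 to 1049 ± 30.3 normalized reads (mean ± SD of 3 libraries). Its log2 fold change in limma was -0.25 (standard error 0.047, adjusted p = 1e-05).

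The other ratios moved less. SEC24A to SEC24C changed by -0.23 and SEC24C to SEC24D by -0.17 on the log2 scale. SAR1A to SAR1B was 2.545, 2.587 and 2.587 in the control and 2.100, 2.328 and 2.240 in the RBP4 libraries, a change of -0.21. For the catalytic subunits STT3A to STT3B the ratio was 1.360, 1.364 and 1.291 in the control and 1.479, 1.547 and 1.448 in the RBP4 libraries, a change of 0.16. SEC11A to SEC11C changed by -0.21, from 9.473 ± 0.348 to 8.163 ± 0.121. Among the KDEL receptors, KDELR1 to KDELR2 was 1.321, 1.296 and 1.272 in the control and 1.118, 1.146 and 1.136 in the RBP4 libraries, a change of -0.19, and KDELR1 to KDELR3 changed by -0.29. KDELR2 to KDELR3 overlapped between groups (exact permutation p = 0.2, adjusted 0.2), with a change of -0.097.

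A further 5 ratios, of subunits of 1 complex, were chosen after their values were seen and are given without a test. SEC61A1 to SEC61G was 2.455, 2.270 and 2.485 in the control and 4.270, 4.055 and 3.829 in the RBP4 libraries, a 1.69-fold change. SEC61A1 to SEC61B went from 3.656 ± 0.220 to 5.241 ± 0.233, and RPN1 to RPN2 from 0.499 ± 0.0128 to 0.625 ± 0.00894. TMED2 to TMED10 went from 1.012 ± 0.0593 to 1.344 ± 0.0222, and COPA to COPB2 from 2.168 ± 0.0266 to 2.622 ± 0.113. In each of the 5 the named first subunit gained on the other in every RBP4 library.

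**Figure D3:**
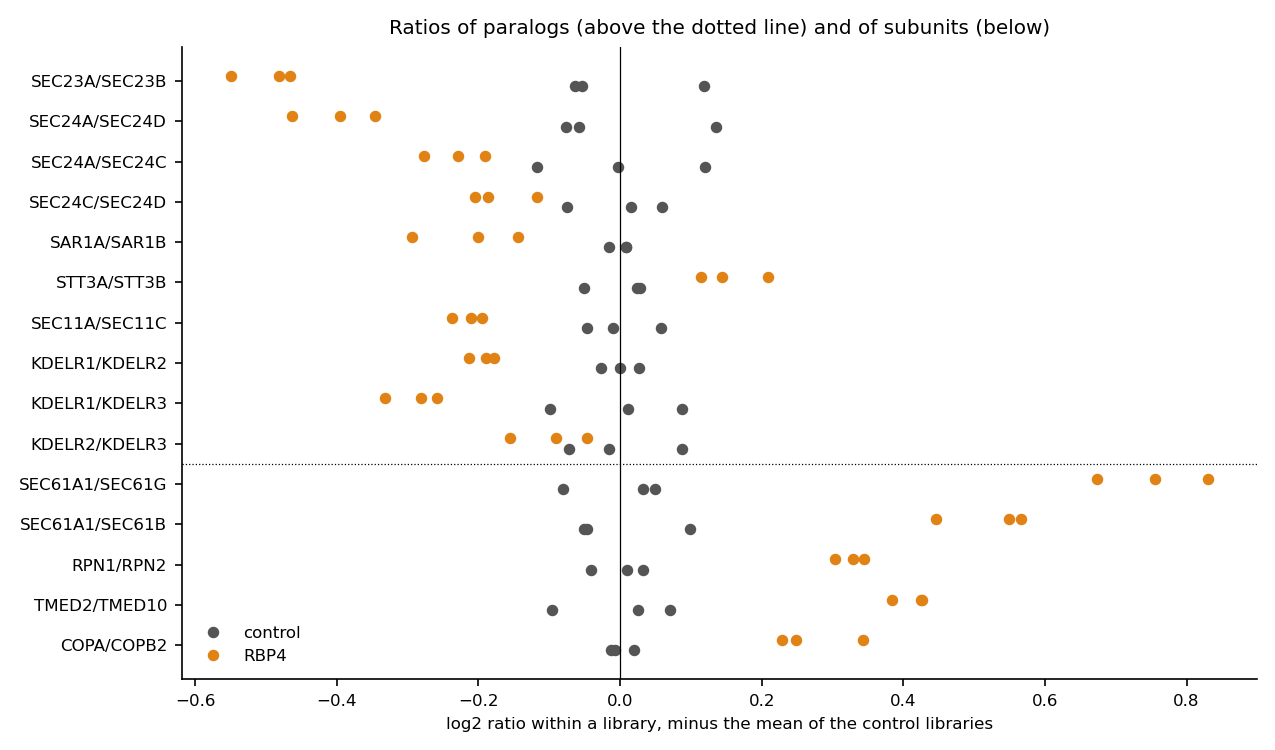
Log2 ratio of 2 members within a library, less the control mean (x axis), for 10 paralog pairs (above the dotted line) and 5 subunit pairs chosen after their values were seen (below); points are libraries. RBP4 libraries lie clear of the control libraries for every pair but KDELR2 to KDELR3, and farthest for SEC61A1 to SEC61G (0.75) and SEC23A to SEC23B (-0.50).

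Levels between genes can be compared only per length. The length used was the union of all annotated exons of a gene, which can exceed that of the transcript made. Orders between genes below depend on that choice. As mean normalized reads per kilobase of exon, the control libraries had a median of 496 over the 48 members, with RPN2 highest (2317) and SEC11C lowest (64.4). Per kilobase, the oligosaccharyltransferase members had the highest median of the 5 sub-groups (1077) and COPII the lowest (233). SEC61A1 went from 611 to 815 per kilobase and SEC61G from 649.5 to 514, so that their order turned on this measure. KDELR1 stayed above KDELR2 and KDELR3, at 1345, 669 and 198 per kilobase in the RBP4 libraries. Summed over the 48 members, normalized reads were 119185, 120607 and 122063 in the control libraries and 118319, 119396 and 118874 in the RBP4 libraries, which overlap. As a share of all normalized reads in the library the members took 0.735%, 0.742% and 0.750% in the control libraries and 0.765%, 0.770% and 0.766% in the RBP4 libraries, which do not; the totals differ between the groups.

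**Figure D4:**
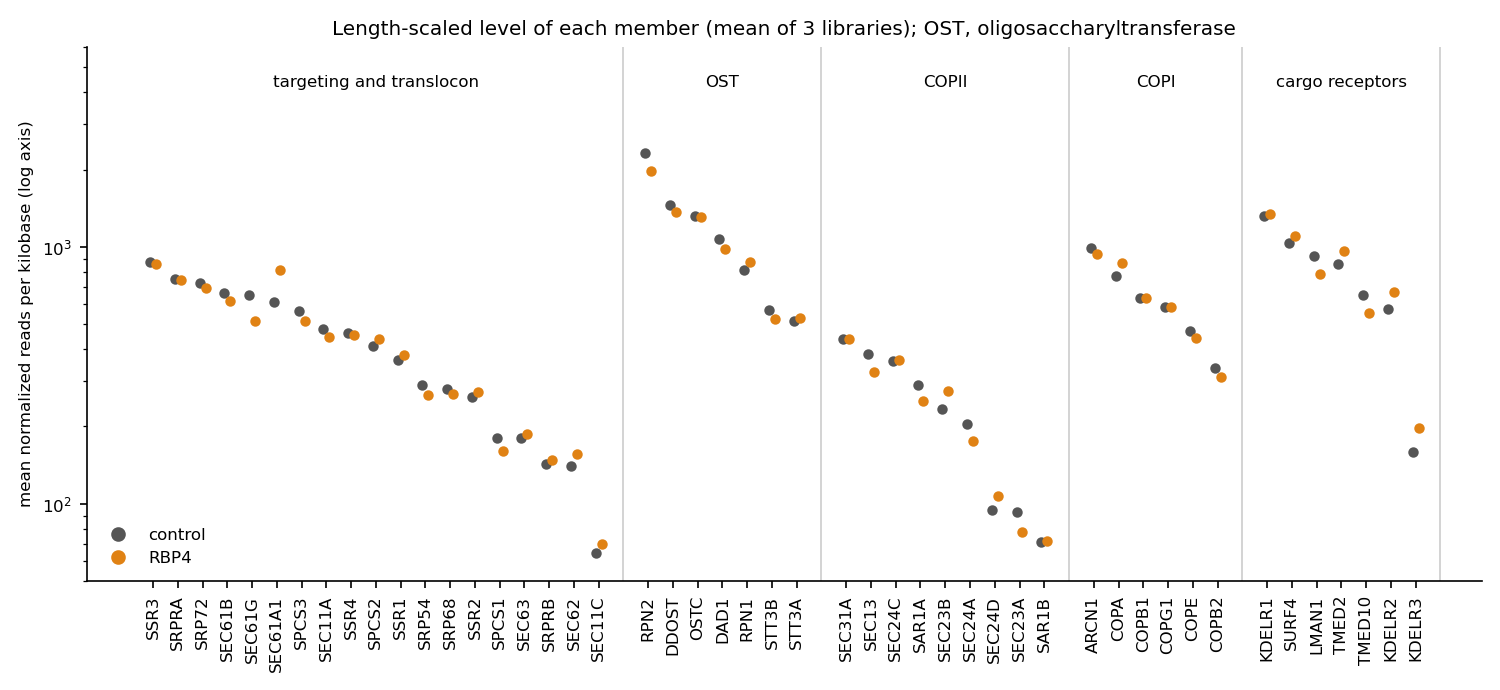
Mean normalized reads per kilobase of exon (y axis, log scale; length is the union of all annotated exons) of each member in the control and the RBP4 libraries, grouped by role and ordered by the control level. Levels span from 64.4 (SEC11C) to 2317 (RPN2) in the control libraries, and SEC61A1 is the member whose 2 points lie farthest apart on this axis.

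Other genes of the same pathways were counted from 6 lists, written with earlier results of these data known. Among 20 SRP subunits and insertion factors, 5 were raised and 7 lowered, against 24.5% and 26.1% of all genes. At equal totals 6 were raised and 6 lowered, against 30.8% and 19.1%. The largest changes in this list exceeded those of any of the 48 members. TRAM1, which lines the path of the new chain beside the channel, had 1347, 1279 and 1311 normalized reads in the control and 2509, 2531 and 2473 in the RBP4 libraries, 1.91-fold higher without overlap (log2 fold change 0.93, standard error 0.039, adjusted p = 5.85e-32). Its relative TRAM2 had 638, 661 and 617 normalized reads in the control and 1152, 1094 and 1114 in the RBP4 libraries, 1.75-fold higher (0.81, standard error 0.053, adjusted p = 1.13e-21). SRP9, which pauses translation with SRP14, had 6558, 6661 and 6882 normalized reads in the control and 5146, 5072 and 5215 in the RBP4 libraries, 1.30-fold lower without overlap (-0.38, standard error 0.028, adjusted p = 3.97e-19).

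Of 30 genes that build the lipid-linked glycan, assist the oligosaccharyltransferase or trim the first glucoses, 11 were raised and 6 lowered. That compares with 24.5% and 26.1% of all genes. At equal totals 15 were raised and 3 lowered, against 30.8% and 19.1%. SRD5A3, a reductase that makes the lipid carrier dolichol, had 307, 307 and 327 normalized reads in the control and 496, 533 and 489 in the RBP4 libraries, 1.61-fold higher (0.69, standard error 0.073, adjusted p = 1.65e-12). ALG2, a mannosyltransferase, went from 443 ± 10.7 to 583 ± 19.5 (mean ± SD of 3 libraries), a log2 fold change of 0.40 (standard error 0.065, adjusted p = 4.53e-07). DPM1, the catalytic subunit that makes the mannose donor, went from 1047 ± 19.6 to 857 ± 33.6, a log2 fold change of -0.29 (standard error 0.05, adjusted p = 1.70e-06).

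Of 16 COPII accessory and fusion factors, 5 were raised and 4 lowered, against 24.5% and 26.1% of all genes. At equal totals 6 were raised and 2 lowered, against 30.8% and 19.1%. STX5, a SNARE of vesicle fusion at the Golgi, had 527, 517 and 553 normalized reads in the control and 795, 776 and 768 in the RBP4 libraries, 1.46-fold higher (0.55, standard error 0.059, adjusted p = 1.76e-12). MIA2, which helps load large cargo at exit sites, went from 334 ± 24.6 to 455 ± 52.2 (0.44, standard error 0.078, adjusted p = 2.88e-06), and SEC22B, the SNARE on the vesicle, from 1464 ± 26.9 to 1741 ± 40.8 (0.25, standard error 0.041, adjusted p = 4.27e-07). SEC16B was not analysed here. Of 17 tested genes for COPI assembly, ARF GTPases and tethering at the ER, 1 was raised and 7 lowered. That is 5.88% and 41.2%, against 24.5% and 26.1% of all genes. Scaled to equal totals, 2 were raised and 5 lowered (11.8% and 29.4%), against 30.8% and 19.1%. COPZ2 was below the filter. ARFGAP1 and ARFGAP2 switch off the GTPase ARF1 on COPI vesicles. ARFGAP1 went from 2842 ± 110.0 to 2302 ± 47.9 (-0.30, standard error 0.035, adjusted p = 3.78e-11) and ARFGAP2 from 2318 ± 53.5 to 1925 ± 44.0 (-0.27, standard error 0.037, adjusted p = 6.35e-09). COPZ1, the zeta subunit of coatomer, went from 3849.8 ± 35.2 to 3307 ± 48.3 (-0.22, standard error 0.031, adjusted p = 1.49e-08).

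Of 16 further cargo receptors 4 were raised and 6 lowered, against 24.5% and 26.1% of all genes. At equal totals 7 were raised and 5 lowered, against 30.8% and 19.1%. MCFD2, the partner with which LMAN1 binds coagulation factors, had 4059, 4092 and 4145 normalized reads in the control and 5085, 4812 and 5018 in the RBP4 libraries. It was higher in every RBP4 library (log2 fold change 0.28, standard error 0.03, adjusted p = 2.37e-12), whereas LMAN1 was lower in every one. LMAN2, a related lectin, went from 3054 ± 16.5 to 2647 ± 46.1 (-0.21, standard error 0.033, adjusted p = 3.21e-07), and BCAP31, which escorts membrane proteins, from 2670.2 ± 109 to 2293 ± 33.8 (-0.22, standard error 0.036, adjusted p = 3.95e-07).

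Of 9 tested transcription factors and proteases that control secretory genes, 6 were raised and 0 lowered in limma, against 24.5% and 26.1% of all genes (7 and 0 at equal totals, against 30.8% and 19.1%). edgeR called 6 raised and DESeq2 5, and leaving out 1 library gave 4 (without control replicate 1) to 7. In limma 7 had an unadjusted p under 0.05 in either direction, and edgeR and DESeq2 each called 0 lowered. CREB3L3 was not analysed here. XBP1 had 1363, 1262 and 1287 normalized reads in the control and 2005, 2063 and 2094 in the RBP4 libraries, a log2 fold change of 0.66 (standard error 0.041, adjusted p = 1.86e-22). CREB3L2, which is released from ER membranes by cleavage and controls secretory genes, had 1675, 1816 and 1830.0 normalized reads in the control and 2230.0, 2236 and 2253 in the RBP4 libraries (0.34, standard error 0.039, adjusted p = 1.88e-11). ATF6B, a relative of ATF6, had 1907, 1876 and 1719.7 normalized reads in the control and 2388, 2254 and 2183 in the RBP4 libraries (0.31, standard error 0.04, adjusted p = 1.27e-09). None of the 3 overlapped between groups. These are transcript levels: splicing of XBP1 and cleavage of CREB3L2 and ATF6B were not measured in these files. All 18 genes taken from the neighbouring lists by their smallest p passed in all 15 alternatives. The alternatives use the same libraries by which the 18 were chosen, so this is no separate support for them.

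**Figure D5:**
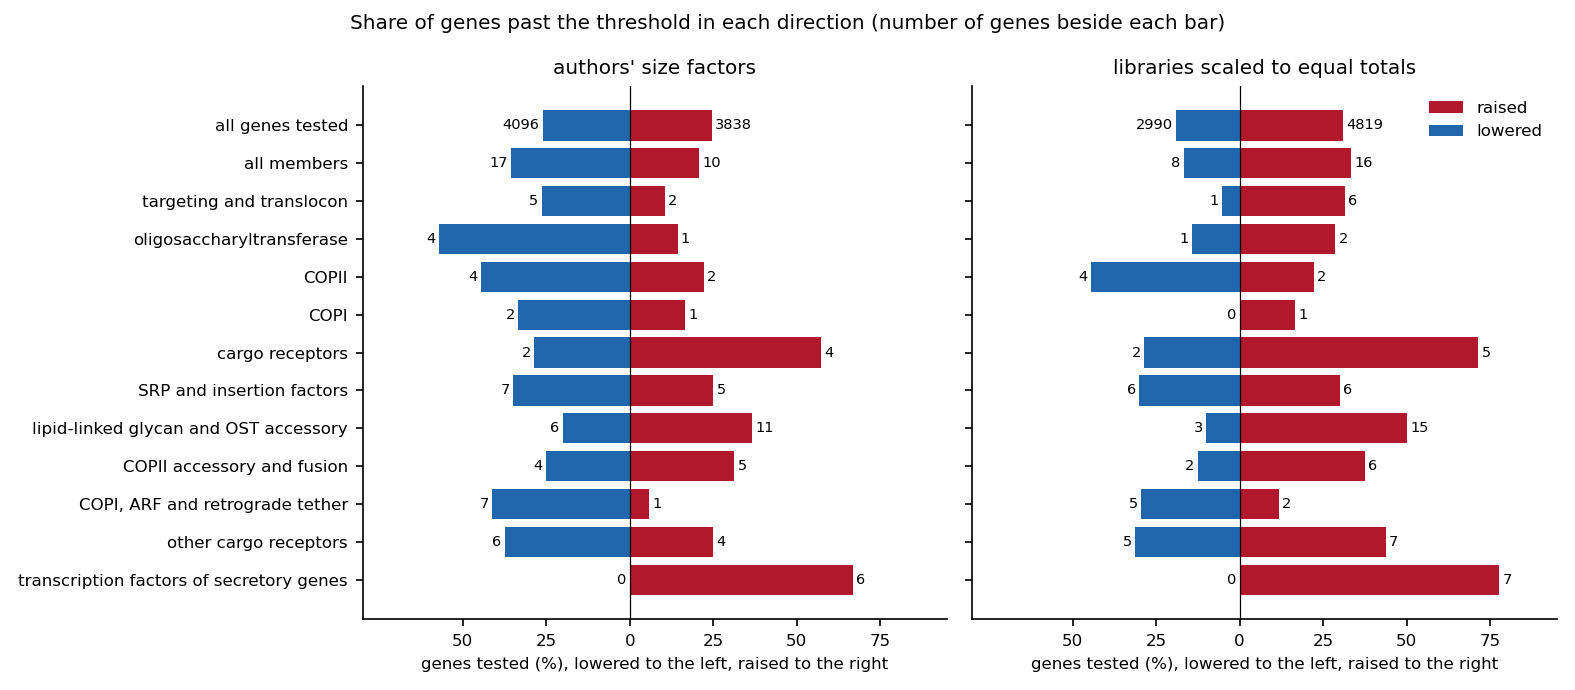
Percent of tested genes raised (right) and lowered (left) at an adjusted p under 0.05, for all genes, the members, their 5 sub-groups and the 6 neighbouring lists, with the submitters' size factors (left panel) and with libraries scaled to equal totals (right panel); numbers beside bars are genes. The members go from 10 raised and 17 lowered to 16 and 8, and the transcription factors have 0 lowered in both panels.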

How the data were processed

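Poly(A) RNA libraries were made with a kit that does not mark strand, per the labels' protocols. Which aligner, counter and genome build were used is not given in the sources used here. Per the file headers, the deposited table holds a normalized signal for each gene in each library, group means, and the authors' own comparison (log2 fold change, p-value and adjusted p-value). All deposited signals were whole multiples of 1 step per library (100% within 0.01 reads), so reads were recovered by dividing by the step. Starts, ends and exon lengths of the 48 members equalled those of GENCODE 29 (GRCh38).

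The main test was limma-trend (limma 3.58.1, R 4.3.3), robust, on log2(value + 1), for genes at 10 or more in at least 3 libraries, two-sided, with Benjamini-Hochberg adjustment and a threshold of 0.05. Fold changes from it are on the log2(value + 1) scale. SE is the standard error of that change, and 95% intervals are 1.96 SE either side. The depth of 15202000 to 16420517 reads limits precision. Libraries of a group differed beyond sampling noise (chi-square per degree of freedom 1.82 to 2.24 between pairs). Alternatives were 2 other pseudocounts, 3 other sets of genes, equal totals, a replicate block, edgeR 4.0.16 and DESeq2 1.42.0 on recovered reads, and leaving out each library. The fit was tested on simulated data.

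Members, lists, motifs and comparisons were chosen with earlier results of these data known. The rule for named genes took all 48 members, and of each neighbouring list the 3 with the smallest p. SEC24B was named outside that rule, after its values were seen. GET1 and GET3 were matched by gene identifier to WRB and ASNA1. Unused columns of library values numbered 0.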

Additional observations from a re-analysis of the deposited data

How the results depend on the processing

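Of the 27 called members 17 kept their call in all 15 alternatives, and no called member turned direction in any of them. Scaling to equal totals gave 16 members raised and 8 lowered: targeting and translocation 6 and 1, oligosaccharyltransferase 2 and 1, COPI 0 lowered. Among the neighbouring lists it gave 3 lowered for the lipid-linked glycan, 2 lowered for COPII accessory, 2 raised for COPI and ARF, and 7 raised for other cargo receptors. DESeq2 lowered 3 targeting and translocation, 1 COPI and 2 COPII accessory genes and raised 0 of the COPI and ARF list; edgeR lowered 1 COPI member. Leaving out each library in turn gave 10 to 11 members raised and 14 to 16 lowered, with ranges of 1 to 2 for COPI lowered, 3 to 5 for SRP and insertion factors raised (3 without RBP4 replicate 2), 2 to 5 for COPII accessory lowered (2 without control replicate 2 or RBP4 replicate 2), and 0 to 1 for COPI and ARF raised (0 without RBP4 replicate 3).

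The 11 members whose sign turned were all uncalled and near 0. At equal totals the log2 fold changes became 0.0446 for SSR3, 0.0374 for SSR4, 0.0552 for SRPRA, 0.0137 for SRP72, 0.0646 for OSTC, 0.0592 for SEC31A and 0.0639 for COPG1. In edgeR they became 6.12e-05 for SRPRA, 0.00962 for OSTC, 0.00383 for SEC31A and 0.0086 for COPG1. Leaving out 1 library gave ranges of -0.0606 to 0.0211 for SSR3, -0.020 to 0.0129 for OSTC, -0.00641 to 0.0515 for SEC24C, -0.0279 to 0.0133 for SEC31A, -0.0276 to 0.0753 for SAR1B, -0.0335 to 0.0286 for COPB1, -0.0294 to 0.013 for COPG1 and -0.000483 to 0.0438 for KDELR1.

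Same-numbered libraries did not deviate together (correlations of 0.0037, -0.0079 and -0.017). Nothing in the labels says that the numbers mark a pairing, and these values cannot show how the samples were arranged. The fit with a replicate block gave the same counts of 10 raised and 17 lowered and changed no member's call. Pseudocounts of 5 and 0.5, no filter, a filter at 5 CPM and protein-coding genes alone also changed no member's call. The causes of these changes were not tested. No member was near the limit that depth sets: the lowest had a control mean of 290.4 normalized reads. A fit that leaves out a library keeps 2 libraries in its group.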

Other observations

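Among the neighbouring genes, 2 families were singled out after their values were seen. The ER membrane complex inserts membrane proteins whose signals the SEC61 channel handles poorly. Of its 8 listed subunits 4 were lowered and 0 raised in limma, against 26.1% and 24.5% of all genes. At equal totals the counts were also 4 and 0, against 19.1% and 30.8%. EMC1 went from 2142 ± 70.8 to 1692 ± 67.9 (normalized reads, mean ± SD of 3 libraries; log2 fold change -0.34, standard error 0.039, adjusted p = 2.59e-11), EMC8 from 651 ± 35.4 to 534 ± 21.0 (-0.29, standard error 0.062, adjusted p = 8.17e-05), EMC2 from 514 ± 14.9 to 433 ± 11.7 (-0.24, standard error 0.067, adjusted p = 0.00168) and EMC7 from 572 ± 21.4 to 491 ± 36.3 (-0.22, standard error 0.066, adjusted p = 0.0036). EMC1, EMC2 and EMC8 passed in all 15 alternatives, and the highest adjusted p of EMC7 over them was 0.0625. EMC1 was the most lowered, with 2081, 2219.6 and 2124 normalized reads in the control and 1637, 1768 and 1671 in the RBP4 libraries, which do not overlap.

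The ARF GTPases recruit coatomer to Golgi membranes. Of 4 listed, 3 were lowered and 0 raised in limma, and 2 and 0 at equal totals, against the same shares of all genes. ARF1 had 9657, 9667 and 9949 normalized reads in the control and 8765, 9065 and 8479.5 in the RBP4 libraries (log2 fold change -0.15, standard error 0.026, adjusted p = 6.20e-07), and ARF3 had 2712, 2597 and 2642 in the control and 2379, 2276 and 2293 in the RBP4 libraries (-0.19, standard error 0.035, adjusted p = 3.64e-06). Both were lower in every RBP4 library and passed in all 15 alternatives. ARF5 went from 1102 ± 90.8 to 1008 ± 6.78 (-0.12, standard error 0.051, adjusted p = 0.0348), a call kept in only 6 of the 15 alternatives, with a highest adjusted p of 0.371 over them. ARF4 did not pass (-0.0035, standard error 0.043, adjusted p = 0.955).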
